A study of Mus musculus with 115 samples.

Results

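The brain of 2-month-old male C57BL/6J mice was compared with 3 other tissues of young mice, to find the genes whose expression sets young brain apart. All 8 brain libraries labelled 2 months in the main count table were members, chosen by their labels alone, and they were 8 of the 115 libraries of the series. Against them stood 4 liver, 5 skin and 5 blood libraries of the same age, so that 22 libraries entered the comparison, with each of the 3 tissues weighted equally. The series is an RNA-seq study of ageing that sampled brain, liver, skin and blood of mice at 5 ages, namely 2, 9, 15, 24 and 30 months. Brain RNA came from a hemisphere, liver RNA from a piece of the organ, skin RNA from hairless abdominal skin and blood RNA from whole blood drawn from the heart into PAXgene tubes and depleted of globin transcripts. No mouse in these groups carried a transgene or received a treatment. The blood and skin libraries came from the same 5 mice. Library kit, sequencer and base-calling software went with tissue, so their effects and those of tissue cannot be told apart.

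A hemisphere holds neurons, which signal by releasing neurotransmitter from vesicles at synapses, together with astrocytes that clear transmitter and supply metabolites, oligodendrocytes that wrap axons in myelin, microglia, which are the resident macrophages, and vessels. Neurons keep many gene families in 2 versions, with a neural member used for the synapse or the axon and a general member used by most cells. Genes of neurons are held silent in many other cells by the repressor REST, which binds a DNA element called RE1, while the RNA-binding protein PTBP1 keeps neuronal exons from being spliced in.

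Total counts per library ran from 35099412 to 46649935 for brain. For blood they were 29969251 to 30715023, for skin 30299800 to 40648322, and for liver 23483352 to 31790346. Levels are given below as CPM, counts scaled to a common library size of 1e6, after TMM scaling, a factor per library that corrects for genes taking a large share of the counts. The markers Snap25, Alb and Alas2 followed the tissue labels of brain, liver and blood. Not every brain marker looked at did so. P2ry12 was higher in blood than in brain, and Gad1 and Aqp4 fell short of the 8-fold rule given below. For skin, the summed level of 18 keratinocyte genes was 12465 to 22483 CPM, against at most 260 CPM in any other library. The neuronal Snap25 was at 1117 to 1577 CPM in brain and at most 1.56 CPM elsewhere, and the liver gene Alb, serum albumin, was at 106999 ± 9601 CPM (SD, n = 4) in liver. Alas2, which starts haem synthesis in red cell precursors, was at 227772 ± 42899 CPM (SD, n = 5) in blood. Of the comparison libraries that stood apart, a pair is described here, and liver replicate 1 is taken up with the gene Hp below. Liver replicate 2 held traces of brain genes. Of 107 brain genes that were near 0 in skin and blood, 105 had counts in it, against 37, 28 and 43 in liver replicates 1, 3 and 4, and their summed CPM there was 0.250% of the brain level against 0.0990%, 0.138% and 0.146%. Skin replicate 1 was rich in muscle transcripts, with the actin gene Acta1 at 13028 CPM against 1497 to 3014 CPM in the other skin libraries. Of the genes named below, leaving aside others at the fold limit, Aqp4, Gad1 and Homer1 changed their call without skin replicate 1, and Slc1a2 and Cbln3 without liver replicate 2.

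Of 20489 genes tested, 9188 (44.8%) were higher in brain than in the mean of liver, skin and blood, and 7519 (36.7%) were lower, at a Benjamini-Hochberg adjusted p under 0.05 by edgeR's quasi-likelihood test. The mean of the other tissues is, here and below, the mean of their 3 fitted log2 levels and not of their CPM values. A gene can thus be higher than this mean while a single tissue far exceeds brain. The median log2 difference over all genes was 0.08. With scaling by total counts in place of TMM, that median was 0.92, and 12863 genes were higher and 4270 lower. Of the 9188 genes, 2876 (31.3%) had a higher level in at least 1 other tissue than in brain. Hence a gene was called distinctive of brain only if it was higher in brain than in each of the 3 tissues at an adjusted p under 0.05 and at least 8-fold above the nearest tissue. By this rule 1965 genes (9.59% of those tested) were distinctive, and 312 genes (1.52%) were distinctively lower, that is, at least 8-fold below each tissue. The nearest tissue was skin for 1135 of the 1965 genes (57.8%), liver for 613 (31.2%) and blood for 217 (11.04%). In bulk tissue, fewer cells of a type and less RNA per cell cannot be told apart.

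For 1953 of the 1965 distinctive genes, every brain library lay above every library of the other tissues. Their median log2 difference from the nearest tissue was 5.42, and it was at least 8 in 370 genes. In 80 genes no read was counted in any of the 14 other libraries. When tissues without counts were set to a floor of 3 counts per tissue, the median was 5.01 and 1860 genes stayed at least 8-fold above the nearest tissue. Distinctive genes took 20.1 to 23.9% of all counts in the brain libraries, 0.538 to 0.649% in skin, 0.107 to 0.146% in liver and 0.0514 to 0.0842% in blood. Protein-coding genes made up 1753 of them (10.1% of 17435 tested), and 155 were long noncoding RNA genes (13.1% of 1180 tested). Without liver replicate 2, 1985 genes were distinctive, 1951 of them shared with the 1965, and the median log2 difference was 5.53. Without skin replicate 1, 2045 were distinctive, with 1955 shared.

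Genes close to the 8-fold limit lay on either side of it by small margins. Tagln3, Armcx4 and Ankrd6 were just inside at 8.02-fold, and Dnajc27, Srcin1 and Gad1 just outside at 7.95-fold, 7.92-fold and 7.88-fold. Gad1, the enzyme that makes the transmitter GABA, ranged from 137 to 305 CPM in brain with a median of 213 CPM. In blood it was at 20.3, 16.9, 27.1, 44.0 and 33.5 CPM in the 5 libraries, far above its levels in liver and skin, which reached at most 0.356 CPM. Without skin replicate 1 its fold over blood was 8.03, just inside the limit.

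**Figure D1:**
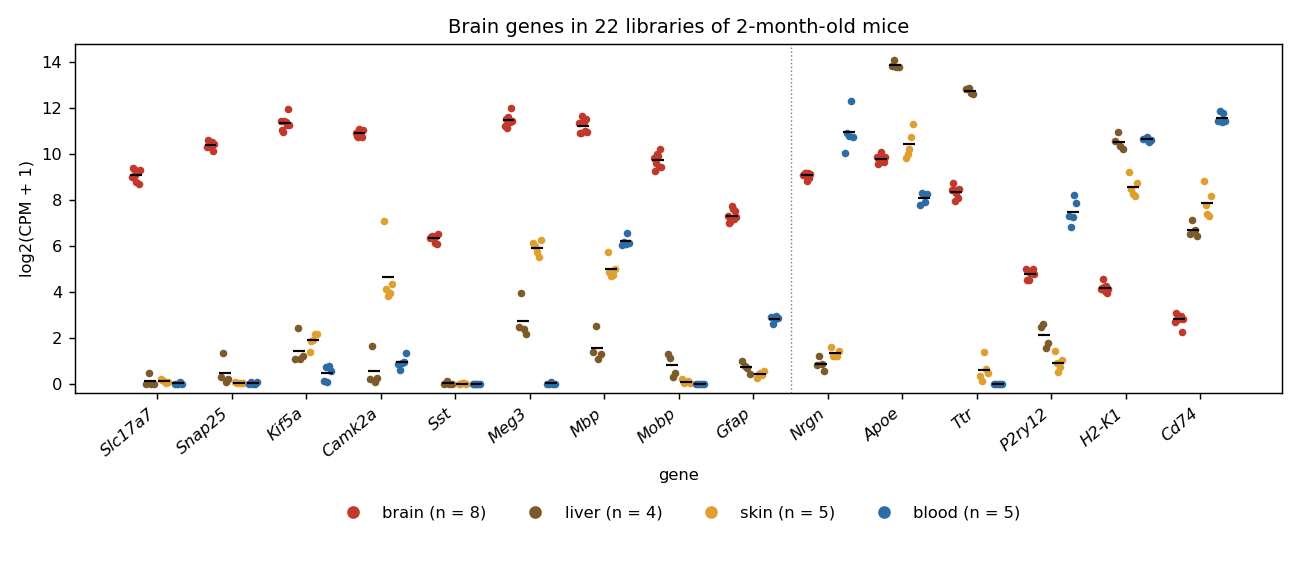
Levels of 15 genes as log2(CPM + 1) on the vertical axis, with a point per library and a black bar at the mean of each tissue (brain n = 8, liver n = 4, skin n = 5, blood n = 5). Left of the dotted line are 9 distinctive genes, whose brain points lie above all others. Right of it are genes with a higher level in another tissue after TMM scaling, such as Nrgn at 1045 to 5050 CPM in blood.

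Genes of the synapse are given first. Of 24 genes of vesicle release tested, 24 were higher in brain than in the mean of the other tissues and 22 were distinctive, with a median log2 difference from the nearest tissue of 6.84, against -0.96 over all genes tested. Snap25, the membrane fusion protein of synaptic vesicles, ranged from 1117 to 1577 CPM in the 8 brain libraries with a median of 1340 CPM. In liver it was at 0.236, 1.56, 0.0595 and 0.147 CPM, and in skin at 0.0191 to 0.0714 CPM. In blood 2 of 5 libraries held a single count each. The groups did not overlap, and the liver value was set by replicate 2. The log2 difference of brain from liver, the nearest tissue, was 11.30 (SE 0.55, adjusted p = 2.64e-14 by edgeR), and it was 13.14 without that library. Syt1, the calcium sensor of release, was at 868 ± 259 CPM in brain (SD, n = 8) and at 28.1 ± 6.51 CPM in liver (n = 4), a 30.9-fold ratio of means. Syp, a vesicle membrane protein, was at 413 ± 102.7 CPM in brain and under 1.15 CPM in every other library. Among the 2 members of the list that did not pass was Syngr1, another vesicle protein, with a log2 difference of 2.22 from blood.

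Nrgn, a calmodulin-binding protein of dendritic spines, was lower in brain than in blood after TMM scaling. It was at 458 to 584 CPM in brain with a median of 547 CPM, and at 1045, 1928, 1785, 5050 and 1708 CPM in the 5 blood libraries, with no overlap between the 2 tissues. The TMM factors were 1.41 to 1.49 in brain and 0.411 to 0.554 in blood. Scaling by total counts would thus raise the brain values and lower those of blood, so the lack of overlap depends on the scaling.

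Genes of the glutamate synapse were distinctive in 21 of 24 cases, with a median log2 difference from the nearest tissue of 7.28. The exceptions were Homer1, Shank2 and Nrgn, of which Homer1 went from 7.75-fold to 9.12-fold and became distinctive without skin replicate 1. Slc17a7, which loads glutamate into vesicles of cortical and hippocampal neurons, ranged from 418 to 671 CPM in brain with a median of 566 CPM. It had 0 counts in liver replicates 1, 3 and 4, and was at 0.401 CPM in liver replicate 2. In skin it was at 0.0357 to 0.143 CPM, and in blood a single count was seen in 1 library. Brain and liver thus differed by a ratio of means of 5549 (95% exact Poisson interval 2923 to 12136, which covers counting error only). The fitted log2 difference from the nearest tissue was 12.20, and 12.52 without liver replicate 2. Grin1, the obligate subunit of NMDA receptors, was at 150 ± 46.8 CPM in brain and at 0.142 ± 0.0625 CPM in skin. Camk2a, a kinase of the postsynaptic density, ranged from 1705 to 2187 CPM in brain with a median of 1925 CPM. In skin it was at 135, 16.4, 13.3, 14.3 and 19.5 CPM, and the high value belonged to replicate 1, the muscle-rich library. The log2 difference of Camk2a from the mean of the other tissues was 9.35, and 9.85 without that library, while its fold over the nearest tissue went from 48.6 to 129. Grm5, a metabotropic glutamate receptor, was at 140 ± 30.7 CPM in brain and had 3 counts in all blood libraries together, a ratio of 3278 (interval 1122 to 15896).

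Inhibitory neurons were represented by 24 tested genes of GABA signalling and interneurons, of which 24 were higher and 18 distinctive, at a median log2 difference of 7.86 from the nearest tissue. Sst, the peptide somatostatin of an interneuron class, was at 80.3 ± 8.21 CPM in brain against 2 counts in liver, 2 in skin and 0 in blood, a ratio to liver of 3607 (interval 998 to 29780). Pvalb, a calcium buffer of another interneuron class, was at 45.0 ± 14.7 CPM in brain. In skin it was at 2763, 208, 217, 261 and 452 CPM, where the highest value again belonged to replicate 1, and every skin library lay above every brain library. Against the mean log2 level of the other tissues, the difference of Pvalb was 3.13, and 3.68 without that library, although skin exceeded brain. Pvalb is also a protein of fast muscle fibres. Reln, Lhx6, Gphn and Gabbr2 were the other members outside the rule, beside Gad1.

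Voltage-gated channels, which carry the action potential, were distinctive in 22 of 24 cases with a median log2 difference of 5.87. Cacna1a, the P/Q-type calcium channel of nerve endings, was at 107 ± 22.3 CPM in brain against 5.11 ± 1.10 CPM in skin. Genes of the cytoskeleton and axon were distinctive in 19 of 24 cases, with a median of 7.26. Kif5a, a motor that moves cargo along axons, ranged from 1996 to 3982 CPM in brain with a median of 2589 CPM. It was at 1.12 to 4.36 CPM in liver, at 1.64 to 3.57 CPM in skin and below 0.74 CPM in blood, so that the nearest groups were separated by a log2 difference of 9.87 (SE 0.47). Nefl, the light chain of neurofilaments, ranged from 197 to 261 CPM in brain with a median of 242 CPM. All 6 of its liver counts were in replicate 2, 1 count was in skin and none was in blood. The ratio of brain to liver was 3573 (interval 1642 to 9737), and the fitted log2 difference from the nearest tissue went from 11.53 to 15.12 without that liver library.

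The 10 distinctive genes with the largest differences among those of at least 50 CPM in brain included Cdk5r2, Slc17a7, Hpcal4, Nrsn1, Pcsk1n, Stmn3, Grm5, Nefl and Scrt1, at fitted log2 differences of 12.58 for Cdk5r2 down to 11.51 for Scrt1. Their order rests on few counts outside brain. Cdk5r2, an activator of the kinase CDK5 in neurons, ranged from 151 to 208 CPM in brain with a median of 182 CPM. It had 2 counts in liver, both in replicate 2, 6 in skin and 1 in blood, which gave a ratio to liver of 8015 with an interval of 2219 to 66183. Hpcal4, a neuronal calcium sensor, ranged from 550 to 703 CPM in brain with a median of 675 CPM, and all 11 of its liver counts were in replicate 2. Without that library the log2 differences were 12.81 for Cdk5r2, 14.17 for Hpcal4 and 15.11 for Nrsn1, so neighbours in this order cannot be told apart.

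By level, the 10 most abundant distinctive genes included Meg3 at 2878 ± 579 CPM, Kif5a at 2653 ± 613, Mbp at 2432 ± 501, Camk2a at 1928 ± 187, Cpe at 1578 ± 99.5, Sparcl1 at 1459 ± 236, Snap25 at 1354 ± 146, Snhg11 at 1333 ± 248 and Camk2n1 at 1294 ± 304 CPM (SD, n = 8 each). These are counts without correction for gene length, so they do not rank the transcripts by number of molecules. Per length, as counts scaled to exon length and library size (RPKM, recomputed here), Cpe was higher than Kif5a in brain, at 605 against 380. Cpe, an enzyme that trims neuropeptide precursors, ranged from 1407 to 1680 CPM in brain and had the lowest SD of these. In skin it was at 118, 56.0, 52.1, 55.7 and 104 CPM, and brain was 20.5-fold above skin. Sparcl1, a secreted glycoprotein of astrocytes, was at 944 to 1743 CPM in brain and at 88.2, 30.0, 29.3, 28.9 and 36.8 CPM in skin.

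Transcription factors and splicing regulators of neurons were distinctive in 19 of 27 cases, with a median log2 difference of 8.60 from the nearest tissue, or 7.58 with tissues lacking counts set to the floor. Celf4, an RNA-binding protein of excitatory neurons, was at 302 ± 14.4 CPM in brain and at 3.22 ± 0.411 CPM in skin. Rbfox3, known as the neuronal marker NeuN, was at 139 ± 16.996 CPM in brain, at 0.715 ± 0.374 CPM in liver and had no count in blood. The 2 lower members were the general repressors. Rest ranged from 5.36 to 7.01 CPM in brain with a median of 6.23 CPM, against 22.2 to 26.7 CPM in liver, 18.7 to 25.7 CPM in skin and 29.8 to 38.74 CPM in blood. Ptbp1 ranged from 17.4 to 19.9 CPM in brain and from 59.3 to 164 CPM in the other libraries. Neither gene overlapped between brain and any other tissue, and each was lower than the mean of the other tissues, at log2 differences of -2.11 (SE 0.08) and -2.42 (SE 0.13), without reaching the 8-fold limit.

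The upstream DNA of the distinctive genes was searched for short letters of known regulatory elements, with motifs chosen after the expression values were known. RefSeq promoters of the GRCm38.p6 build, 250 bases before the listed start, were matched for 13932 tested genes, among them 1392 of the 1965 distinctive genes and 196 of the 312 lower ones, and both strands were read. TCAGCACC, the left part of RE1, was found in 29 distinctive promoters (2.08%) against 1.33% of all. GGACAGC, the right part, was in 6.03% against 6.13%, and the left part followed after 2 bases by GGACAG was found in 3 promoters in all, those of Fam163b, Ogdhl and Fbll1, all 3 distinctive. TGACGTCA, the cyclic AMP response element bound by CREB, was in 2.80% of the distinctive promoters and 2.35% of all, and CCGGAAGT, an ETS factor site, in 0.647% against 4.69%. GGGCGG, the GC box, was in 46.3% against 52.0%, and TATAAA in 8.48% against 8.51%. The median GC content was 58.4% in both sets, but the median number of CpG pairs was 10 against 13. Among promoters of the lower genes GAAACTGA, a part of the interferon-stimulated response element, was in 12 (6.12%) against 1.64% of all, some of them related genes such as Oas1a and Oas1g. The same set held the GC box in 29.1% and TATAAA in 14.3%, with a median of 3 CpG pairs and a GC content of 51.2%, and none of these differences was tested. A match describes letters in a window, and not binding.

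The 3 promoters with the left part of RE1 followed after 2 bases by GGACAG, and that of Syn1, which encodes the vesicle protein synapsin and is a textbook target of REST, are printed 5′ to 3′ on the strand of the gene, over the bases before the start that lie outside the annotated gene. Capitals mark TCAGCACC and GGACAGC (or their reverse complements, as in Fbll1) and, in Syn1, also TGACGTCA. In Fam163b the base after GGACAG is t, so that only the left part is in capitals.
Fam163b, chr2:27142492-27142727, minus strand, left part ending 96 bases before the start: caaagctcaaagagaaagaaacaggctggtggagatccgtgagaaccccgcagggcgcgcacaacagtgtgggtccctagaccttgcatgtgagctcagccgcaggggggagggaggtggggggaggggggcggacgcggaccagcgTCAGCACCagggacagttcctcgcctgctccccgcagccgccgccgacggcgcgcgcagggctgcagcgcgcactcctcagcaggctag
Ogdhl, chr14:32321769-32322018, plus strand, left part ending 97 bases before the start: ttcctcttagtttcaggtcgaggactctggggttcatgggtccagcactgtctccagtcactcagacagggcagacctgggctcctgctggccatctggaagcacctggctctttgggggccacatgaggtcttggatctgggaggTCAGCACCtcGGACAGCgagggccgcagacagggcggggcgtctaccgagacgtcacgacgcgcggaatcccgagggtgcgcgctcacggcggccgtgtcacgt
Fbll1, chr11:35798885-35799134, minus strand, left part from 180 bases before the start: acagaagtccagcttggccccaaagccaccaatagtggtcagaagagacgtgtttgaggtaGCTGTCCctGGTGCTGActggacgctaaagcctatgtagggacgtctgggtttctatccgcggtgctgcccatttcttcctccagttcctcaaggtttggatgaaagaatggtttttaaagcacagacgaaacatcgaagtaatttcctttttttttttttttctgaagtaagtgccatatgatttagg
Syn1, chrX:20921005-20921168, minus strand, left part ending 224 and TGACGTCA ending 152 bases before the start: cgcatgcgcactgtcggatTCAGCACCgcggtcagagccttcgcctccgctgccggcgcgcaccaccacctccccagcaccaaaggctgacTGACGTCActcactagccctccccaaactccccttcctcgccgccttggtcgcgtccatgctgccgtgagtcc

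Fam163b ranged from 64.2 to 97.8 CPM in brain with a median of 82.4 CPM, against 0.178 CPM at most in liver, 0.172 CPM in skin and 0 in blood. Ogdhl, related to a subunit of a mitochondrial dehydrogenase, ranged from 54.0 to 91.2 CPM in brain and from 1.19 to 3.18 CPM in skin, with 0 in blood. Fbll1, a relative of the nucleolar methyltransferase fibrillarin, was at 14.1 to 20.05 CPM in brain, with 1 count in liver, 0 in skin and 1 in blood. Syn1 was at 327 ± 98.9 CPM in brain and at 0.806 ± 0.289 CPM in liver. In each of the 4 genes the brain libraries lay above all others.

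Peptide transmitters were distinctive in 22 of 24 cases, with a median log2 difference of 7.64 from the nearest tissue (7.09 at the floor). Pcsk1n, an inhibitor of the protease that cuts peptide precursors, was at 289 ± 39.0 CPM in brain, had 6 counts in liver and none in blood. Chgb, a protein of dense-core vesicles, was at 235 ± 88.8 CPM in brain and Scg2, another, at 207 ± 49.97 CPM, with no count of either in blood. Hypothalamic peptides were low in a whole hemisphere, with Hcrt (hypocretin) at 2.67 ± 0.550 CPM, Pmch (melanin-concentrating hormone) at 7.07 ± 1.44 CPM and Oxt (oxytocin) at 4.58 ± 1.82 CPM, and all 3 were distinctive. Penk, the precursor of enkephalins, was at 140 ± 24.4 CPM in brain and at 22.3, 12.4, 12.4, 12.3 and 14.3 CPM in skin. It was 9.50-fold above skin at 2 months and did not pass the 8-fold rule at any of the other 4 ages. The members outside the rule were Agrp and Pomc.

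Genes of striatal projection neurons were distinctive in 15 of 16 cases, with a median of 6.73. Ppp1r1b, the dopamine-regulated phosphatase inhibitor DARPP-32, was at 152 ± 11.2 CPM in brain and at 5.02 ± 0.869 CPM in liver. Drd1 and Drd2, the main dopamine receptors of these cells, were at 28.3 ± 3.36 and 15.8 ± 2.22 CPM. Gpr6, a receptor of the indirect pathway, was at 6.95 ± 1.12 CPM with no count in any other library, which put brain at least 164-fold higher on a floor of 3 counts over each group. Adora2a, an adenosine receptor, was the exception, with blood at 13.9 CPM in the mean against 32.9 ± 3.96 CPM in brain. Genes of monoamine and acetylcholine neurons were distinctive in 11 of 20 cases, with a median of 3.89. Here the serotonin transporter Slc6a4 ranged from 0.187 to 8.74 CPM in brain and from 125 to 329 CPM in blood, and it was lower than the mean of the other tissues. Tph2, which makes serotonin in neurons, was at 5.26 ± 4.76 CPM in brain, and 3 counts were seen in liver, 2 in skin and 1 in blood.

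Among glial genes, those of oligodendrocytes were most often distinctive. Of 22 tested genes of myelin and oligodendrocytes, 22 were higher and 15 distinctive, with a median log2 difference of 4.68 from the nearest tissue. Mbp, the major protein of compact myelin, ranged from 1937 to 3221 CPM in brain with a median of 2345 CPM. In blood it was at 65.2, 70.7, 67.6, 93.0 and 70.1 CPM, so that brain was 33.2-fold above blood. Mobp, a further myelin protein, was at 863 ± 201 CPM in brain, at 0.826 ± 0.605 CPM in liver and at 0 in blood. Opalin, a membrane protein of oligodendrocytes, ranged from 12.998 to 19.8 CPM in brain, and no read of it was counted in the other 14 libraries. Brain was thus at least 405-fold higher, on a floor of 3 counts over each group. Cnp, an enzyme of myelin, was an exception, since its log2 difference from blood was 0.37 (SE 0.18, adjusted p = 0.0899 by edgeR). Of 13 precursor genes, 8 were distinctive, with a median of 5.61. Bcan, a proteoglycan of the brain matrix, was at 164 ± 16.1 CPM in brain and at 0.0926 ± 0.149 CPM in liver.

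Astrocyte genes were distinctive in 8 of 22 cases, and their median log2 difference from the nearest tissue was 1.0. Gfap, the intermediate filament of astrocytes, was at 162 ± 31.4 CPM in brain and 26.4-fold above blood, and Slc1a3, a glutamate transporter, was at 404 ± 52.5 CPM and 14.5-fold above skin. Slc1a2, the transporter that clears most synaptic glutamate, was at 1691 to 2225 CPM in brain with a median of 2022 CPM. It was at 154 to 390 CPM in liver, hence at 7.35-fold it missed the limit, which it passed at 8.58-fold without liver replicate 2. Aqp4, a water channel, was at 109 to 167 CPM in brain and at 66.2, 8.64, 9.03, 6.38 and 13.2 CPM in skin, again highest in replicate 1. It was 6.26-fold above skin and not distinctive, but 14.7-fold above skin and distinctive without that library. Glul, which makes glutamine from glutamate, was at 1078 ± 142 CPM in brain and 1334 ± 79.4 CPM in liver, a log2 difference of -0.31 (SE 0.15, adjusted p = 0.0811). Apoe, a lipid carrier, was at 889 ± 106 CPM in brain against 15155 ± 1512 CPM in liver.

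Microglial genes gave no distinctive gene among 20 tested, although 12 were higher and 4 lower than the mean of the other tissues, with 18 higher and 1 lower under total count scaling. P2ry12, a receptor for ADP, ranged from 21.9 to 31.0 CPM in brain and from 111 to 296 CPM in blood. P2ry12 is known from platelets too. Tmem119, a membrane protein of microglia, was at 15.1 ± 2.00 CPM in brain and 4.14 ± 0.535 CPM in skin, a 3.64-fold difference. Cx3cr1, the fractalkine receptor, was at 34.8 ± 2.63 CPM in brain against 24.9 ± 5.09 CPM in blood. Of 22 endothelial and pericyte genes, 2 (9.09%) were distinctive, close to the 9.59% of all genes. These were Slco1c1, a thyroid hormone transporter of brain vessels, at 41.8 ± 5.22 CPM, and Foxf2, a transcription factor of brain pericytes, at 2.94 ± 0.756 CPM. Of 17 genes of choroid plexus and ependyma, 10 were distinctive, with a median log2 difference of 3.25. Ttr, the thyroxine carrier, ranged from 250 to 422 CPM in brain and from 6342 to 7620 CPM in liver. Of 15 genes of new neurons, 6 were distinctive, with a median of 1.58, and Dcx, a microtubule protein of migrating neurons, was at 33.3 ± 4.86 CPM in brain.

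Long noncoding and imprinted RNAs included 8 distinctive genes of 10 tested. Meg3, an imprinted noncoding RNA, ranged from 2253 to 4132 CPM in brain with a median of 2724 CPM. It was at 44.7 to 75.5 CPM in skin, at 3.47 to 14.7 CPM in liver and had a single count in blood. Sox2ot, which overlaps the stem cell gene Sox2, was at 27.6 ± 3.52 CPM in brain, and Dlx6os1, a transcript of the Dlx locus of inhibitory neurons, at 14.3 ± 2.22 CPM. Since strand use in the counting is not stated, reads of such transcripts and of the genes they overlap cannot be told apart. The 2 genes outside the rule were Malat1, at 1.47-fold above liver, and Neat1, at 1606 to 2489 CPM in skin against 88.6 to 203 CPM in brain.

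**Figure D2:**
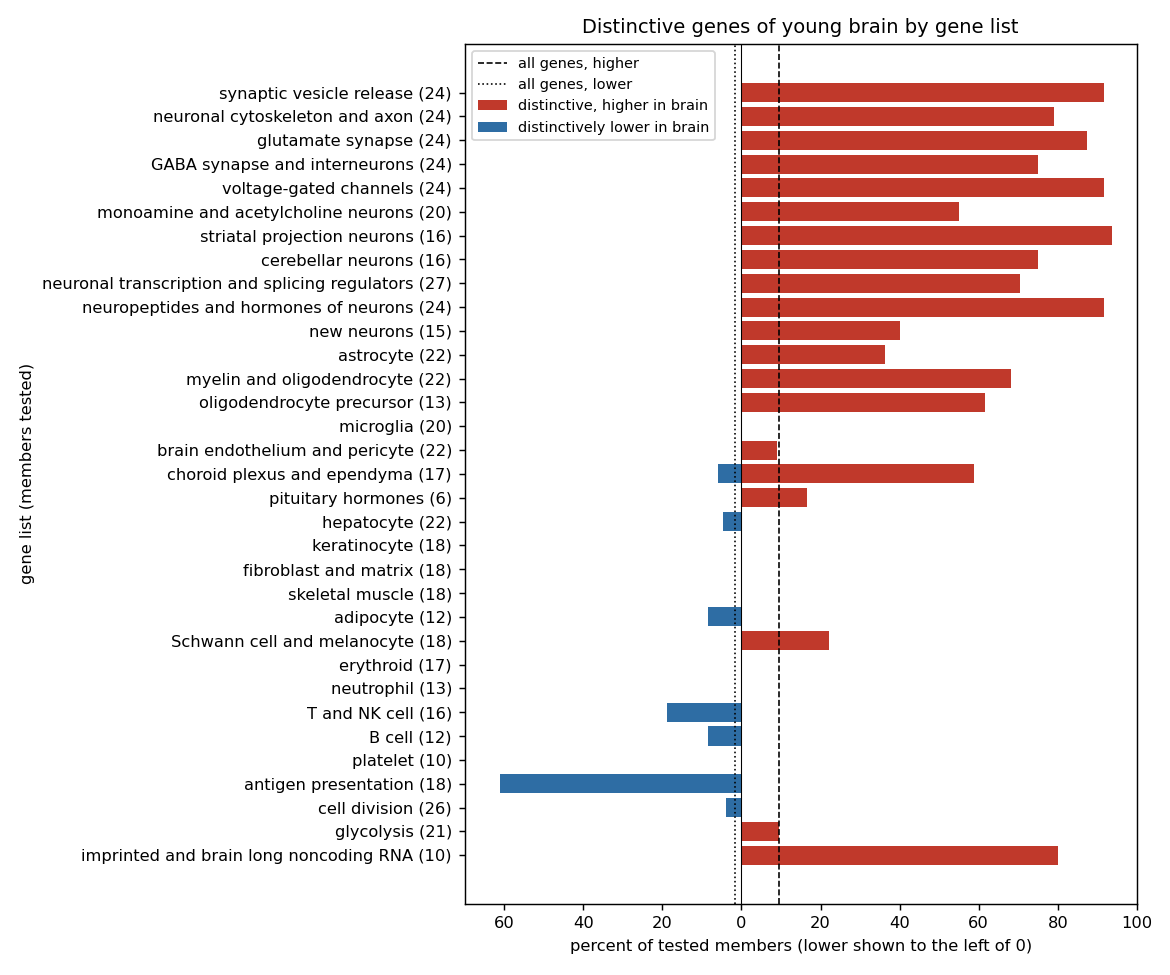
Share of the tested members of each gene list that were distinctive of brain (bars to the right, percent) or distinctively lower in brain (bars to the left, percent), with the number tested in brackets. Dashed and dotted lines mark the 9.59% and 1.52% of all genes, and lists of neurons reach furthest to the right while antigen presentation reaches furthest to the left.

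Among the gene lists, antigen presentation had the largest share of members distinctively lower in brain. These members are a small part of the 312 distinctively lower genes. Of 18 tested genes of antigen presentation, 18 were lower in brain than in the mean of the other tissues and 11 were distinctively lower, with a median log2 difference from the mean of -4.89, against 0.08 over all genes. With total count scaling 18 were again lower, and 7 distinctively. H2-K1, a class I histocompatibility molecule, ranged from 14.6 to 22.5 CPM in brain with a median of 16.8 CPM. It was at 1516, 1996, 1314 and 1179 CPM in liver, at 287 to 600 CPM in skin and at 1459 to 1727 CPM in blood. Brain lay below all other libraries, by a log2 difference of -4.51 (SE 0.17) from skin, the nearest, with an adjusted p of 6.20e-16 by edgeR. H2-Q7, a related class I gene, ranged from 1.34 to 2.48 CPM in brain and from 63.1 to 283 CPM elsewhere. Reads of H2 genes can be split among near-identical copies, so each value is uncertain. Cd74, the invariant chain of class II molecules, was at 6.06 ± 1.09 CPM in brain and 105, 256.2 and 3111 CPM in the means of liver, skin and blood. B2m, the light chain of class I, was at 56.8 ± 4.30 CPM in brain and 412 ± 149 CPM in skin, at a log2 difference of -2.86, short of the limit.

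The other genes chosen for the size of their deficit had varied roles. Hp, the haemoglobin-binding plasma protein haptoglobin, ranged from 0.0575 to 0.283 CPM in brain with a median of 0.153 CPM. It was at 39542, 6036, 3762 and 2914 CPM in liver, at 68.6 to 101.5 CPM in skin and at 144 to 207 CPM in blood, and brain was lower than skin by a fitted 560-fold. The highest liver value belonged to replicate 1, which also had the lowest TMM factor in liver, 0.586 against 0.707 to 0.741. Plbd1, a lysosomal phospholipase-like protein, was at 0.144 to 0.407 CPM in brain and at 63.4 to 116 CPM in the other libraries. Cd36, a fatty acid receptor, was at 1.34 ± 0.235 CPM in brain and 82.5 ± 4.88 CPM in liver, the lowest of the other 3 tissues by mean. Aqp1, a water channel known from red cells and choroid plexus, was at 2.55 ± 0.567 CPM in brain and 65.7 CPM in the mean of skin. Ecm1, an extracellular matrix protein, was at 4.46 ± 0.952 CPM in brain and at 140, 92.9 and 93.1 CPM in liver, skin and blood.

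Cell division genes were lower in brain in 26 of 26 cases, with a median log2 difference of -2.52 from the mean of the other tissues, and in 24 under total count scaling. Mki67, a marker of cycling cells, ranged from 1.60 to 2.50 CPM in brain, from 2.01 to 14.7 CPM in liver, from 37.3 to 174 CPM in skin and from 36.8 to 63.4 CPM in blood. Brain and liver overlapped in range, and Cdk1, the kinase that starts mitosis, was the only member distinctively lower. For markers of other tissues, counts stand beside the 36.7% lower and 44.8% higher among all genes. Lower members were 15 of 22 for hepatocytes, 8 of 18 for keratinocytes, 10 of 18 for fibroblasts, 11 of 18 for skeletal muscle, 9 of 12 for adipocytes, 15 of 17 for erythroid cells, 10 of 13 for neutrophils, 14 of 16 for T and NK cells, 12 of 12 for B cells and 9 of 10 for platelets. Higher members were 1, 2, 7, 1, 0, 1, 0, 2, 0 and 0 in that order. With total count scaling, 7 fibroblast genes were higher and 7 lower. These counts also depend on the tool. Both limma voom and DESeq2 called 21 hepatocyte, 13 keratinocyte and 12 adipocyte genes lower, while B cell genes fell to 11 with DESeq2. Every tested hepatocyte, keratinocyte, skeletal muscle and adipocyte gene had a higher level in at least 1 other tissue than in brain. Of 6 pituitary hormone genes, 6 were higher, and Prl, prolactin, alone was distinctive, at 0.307 CPM in brain. Its brain libraries ranged from 0.0948 to 0.762 CPM, so the size of its fold is limited by depth. Of 18 Schwann cell and melanocyte genes, 4 were distinctive, among them Mal, Sox10 and S100b, which are shared with oligodendrocytes or astrocytes. Of 21 glycolysis genes, 12 were higher and 3 lower, and 2 (9.52%) were distinctive, Aldoc and Eno2, close to the share of all genes.

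Related gene pairs set a member listed as neural beside another member of its family. In 24 such pairs, the neural member was distinctive in 20 and the other member in 0, while the other member was called lower in brain in 12 and higher in 10. Per length, the neural member made up a median of 92.9% of the summed RPKM of its pair in brain, against 5.85% in liver, 7.33% in skin and 2.94% in blood. The other member was not always a general gene, and such pairs enter these medians too. Ckm, beside Ckb, was at 489 ± 636 RPKM in skin and 0.0255 in brain. Slc2a2, beside Slc2a3, was at 64.7 RPKM in liver and 0.0189 in brain. Sv2c, beside Sv2a, was at 1.67 RPKM in brain, 0.0101 in liver, 0.00794 in skin and 0.353 in blood. For Snap25 and Snap23, the general fusion protein, RPKM values were 199 ± 21.5 and 2.79 ± 0.486 in brain and 0.00385 ± 0.00530 and 47.1 ± 14.03 in blood. For Kif5a and Kif5b they were 380 ± 87.7 and 33.0 ± 6.31 in brain, and 0.284 ± 0.227 and 9.11 ± 1.71 in liver, so that both motors had their highest level in brain while their ratio turned round.

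In some pairs both members were well expressed in brain. Eno2, the neuronal enolase, made up 67.2% beside Eno1 in brain, and Tubb3, a neuronal tubulin, 54.5% beside Tubb5. The splicing regulators Ptbp2 and Ptbp1 were at 7.40 ± 0.479 and 3.93 ± 0.175 RPKM in brain and at 1.31 ± 0.370 and 22.6 ± 2.62 RPKM in liver. Aldoc, an aldolase of astrocytes, was below 50% in brain, at 41.1% of its pair with Aldoa. The neural member exceeded 50% in 23 pairs in brain, 6 in liver, 4 in skin and 4 in blood.

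**Figure D3:**
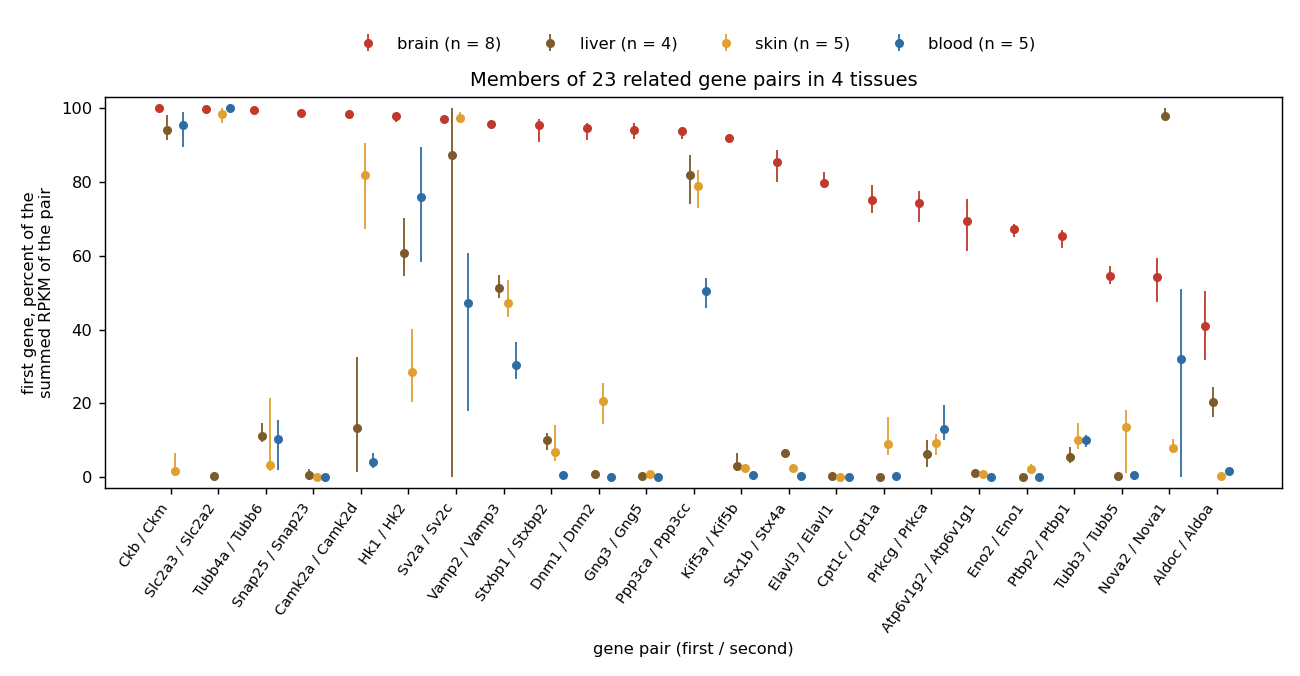
First gene of each pair as percent of the summed RPKM of the pair, for brain (n = 8), liver (n = 4), skin (n = 5) and blood (n = 5), where points are ratios of mean RPKM and vertical bars run from the lowest to the highest library. Brain points lie above 50% in 22 of the 23 pairs drawn, and Aldoc is the exception at 41.1%.

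Among themselves the 8 brain libraries agreed closely for most distinctive genes. Over the 1185 distinctive genes with a brain mean of at least 10 CPM, the median SD of log2(CPM + 1) was 0.203, and 28 genes exceeded 0.5. Cbln3, a cerebellin of cerebellar granule cells, had the largest SD. It was distinctive at 10.1-fold above the nearest tissue but, though 11.1-fold above it without liver replicate 2, was then not called. It was at 41.3, 0.736, 1.56, 7.09, 62.4, 0.601, 0.834 and 0.589 CPM in replicates 1 to 8. The median was 1.19 CPM, so the brain mean behind these folds came mainly from replicates 1 and 5. Gabra6, a GABA receptor subunit of the same cells, was at 18.2, 0.0368, 0.398, 2.84, 26.5, 0, 0.0719 and 0.0168 CPM. High values of both thus belonged to replicates 1 and 5, and the same 2 libraries were the highest for Cbln1, Car8, Pcp2, Neurod1 and Zic1. Of 16 cerebellar genes, 12 were distinctive, and Gabra6 was not, with an adjusted p of 0.0837 against the nearest tissue, although no read of it was counted outside brain. The haemoglobin gene Hba-a1 was also highest in these libraries, at 207 and 162 CPM against 32.9 to 123 CPM in the other 6. The amount of cerebellum in each hemisphere sample is not stated in the labels, and its part in these values was not tested.

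A different set of libraries stood out for Vgf, a secreted peptide precursor induced by activity. It was at 79.9, 165, 186, 90.4, 66.1, 118, 45.9 and 110 CPM in replicates 1 to 8, highest in replicates 2 and 3 and lowest in replicate 7. The mitochondrial share of counts was 9.38, 6.31, 5.94, 9.27, 9.48, 7.75, 12.96 and 7.31% in the same order, so that the highest share and the lowest Vgf fell in replicate 7, which was also the deepest library. Disp2, Clstn3 and Syt2 were likewise highest in replicate 3 and lowest in replicate 7, whereas Arc, an immediate early gene of synapses, was highest in replicate 4 at 104 CPM and lowest in replicate 7 at 24.3 CPM. Kif5a, Meg3, Camk2n1, Nrsn1 and Snhg11 took the opposite course, with replicate 7 the highest. Tph2 and Slc6a4 were highest in replicates 2 and 3, at 11.3 and 13.1 CPM and at 7.52 and 8.74 CPM. The part of RNA quality, dissection or depth in these patterns was not tested.

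**Figure D4:**
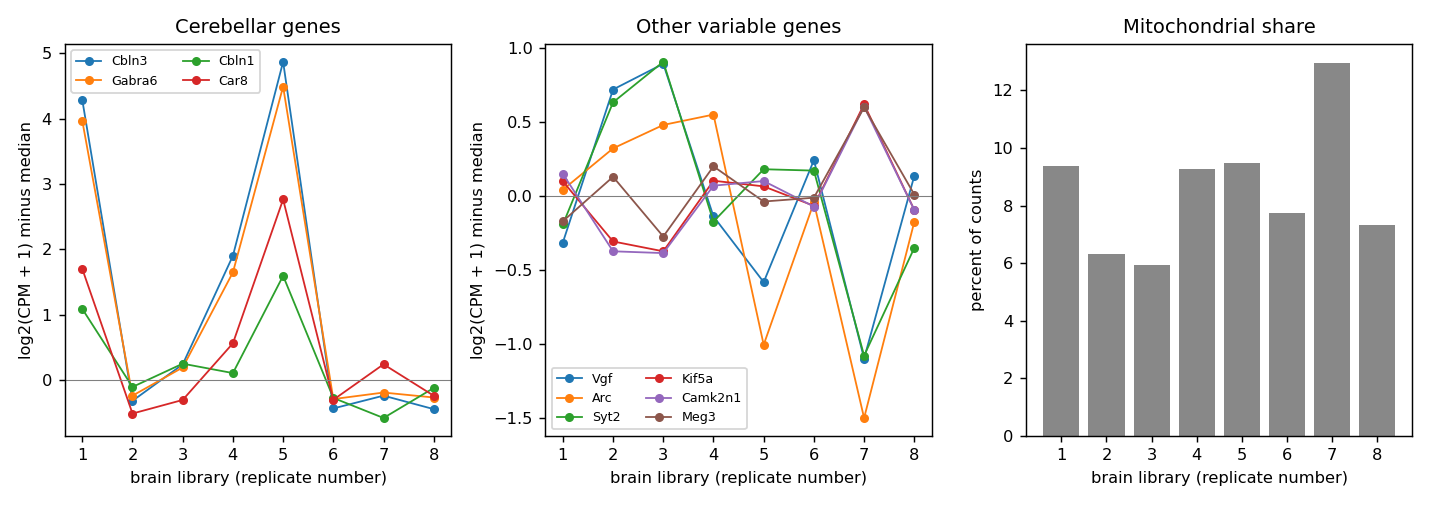
Left and middle, log2(CPM + 1) minus its median over the 8 brain libraries for cerebellar genes and for other variable genes, and right, the percent of counts on mitochondrial genes, each by replicate number on the horizontal axis. Cerebellar genes peak in replicates 1 and 5, while Vgf is lowest and Kif5a and Meg3 highest in replicate 7, where the mitochondrial share is 12.96%.

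The same rule was applied to the libraries of older mice, which the 2-month comparison did not use. Of the 1965 genes, 1758 were also distinctive at 9 months, 1761 at 15, 1750 at 24 and 1687 at 30 months. That was 89.5, 89.6, 89.1 and 85.9% of the 1965, and 92.2, 91.3, 89.0 and 88.2% of the 1906, 1928, 1966 and 1913 genes distinctive at each age. At all 5 ages 1580 genes (80.4%) passed, and 97 passed at 2 months alone. Of the 312 lower genes, 78.5, 81.1, 79.2 and 57.7% passed at 9, 15, 24 and 30 months, and 155 (49.7%) at all 5 ages. They made up 56.8, 49.8, 47.0 and 43.7% of the 431, 508, 525 and 412 genes distinctively lower at those ages. At 9 and 15 months, brain replicates 4 to 8 nearly coincided between the ages, with a mean chi-square per gene of 1.2 to 2.65 between libraries of the same number against 4.37 to 411 between libraries of different numbers. Hence these 2 ages are not independent, and without those replicates 1713 and 1722 genes passed. In the cerebellar set, Cbln3 exceeded 10 CPM in 2 of 8 brain libraries at 2 months, in 3 of 8 at 9 months, 3 of 8 at 15 months, 1 of 7 at 24 months and 4 of 8 at 30 months.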

How the data were processed

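The authors read RNA of snap-frozen tissues from a single end, aligned it to mouse GRCm38 with TopHat2 2.0.6 and counted reads per gene with HTSeq 0.5.3p9 or featureCounts 1.4.3-p1, as the methods and the submitters' processing notes list them. The deposited counts of 37315 genes are raw, not normalized, whole numbers. Strand use in counting and the version used for each library are not given in the sources used here. The authors had left outlier libraries out of the main table, and a liver library held outside it entered an alternative only. RPKM values deposited by the authors were used only for the zeros in the filter of the study, because the gene lengths they imply bear no relation to annotated lengths (Spearman's rho -0.0008 across 20849 genes). RPKM was recomputed here from counts and annotated exon lengths. Columns of the authors' own comparisons were not used.

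Genes passing filterByExpr were fitted with edgeR 4.0.16 (TMM, robust quasi-likelihood test, tissue as factor) under R 4.3.3. The p against each tissue is the largest of 3 pairwise values, and p-values were Benjamini-Hochberg adjusted over all genes. Each SE of a log2 difference was derived from the test, as the absolute difference divided by the square root of its F statistic. The fit was tested on simulated data. The same mice gave skin and blood, so a fit with the animal as block was added. Deviations of the 2 tissues of an animal correlated at -0.0200 to 0.0151. Other alternatives were other scalings, filters and tools (limma 3.58.1 voom, DESeq2 1.42.0), fold limits and leaving out each library. P-values measure the spread between these libraries. No 2 libraries of a 2-month group agreed within sampling noise. Intervals are exact Poisson at 95% and cover counting error only.

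Members and the 33 gene lists (614 of 626 names found) were chosen with earlier results of these data known. Genes named by rule were the 10 distinctive genes with the largest difference (at least 50 CPM), the 10 most abundant, the 8 distinctively lower genes with the largest difference (at least 50 CPM in each other tissue), the 2 members of each list highest in brain and the member highest elsewhere, members of 24 related pairs, the 8 most variable and 5 long noncoding RNAs, 157 in all, and further list members were named after their values were seen. Some genes that these rules name are not reported here.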

Additional observations from a re-analysis of the deposited data

Results flagged for a closer look

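Among 39 genes screened over the 8 brain libraries of 2 months, 7 had a highest library that stood apart from the other 7 by a gap, relative to the whole range, above Dixon's 95% critical value for 8 samples. Chance flags about 1 in 20 groups. In 5 of them the high library was replicate 7, which had the most counts and the highest mitochondrial share. Camk2n1, an inhibitor of the kinase CaMKII, was at 1927 CPM there, with the next library at 1404 CPM. Kif5a was at 3982 CPM against 2780 CPM in the next library, and Meg3 at 4132 CPM against 3132 CPM. Nrsn1, a membrane protein of neuronal vesicles, was at 542 CPM against 392.5 CPM, and Snhg11 at 1915 CPM against 1354 CPM. Scrt1, a neuronal zinc finger repressor, was at 106 CPM in replicate 4 against 91.7 CPM in the next library. H2-K1 was at 22.5 CPM in replicate 3 against 18.3 CPM. All 7 genes kept their call without the library concerned, and the part of depth or RNA quality in these values was not tested.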

How the results depend on the processing

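Over 157 named genes and up to 33 alternatives, 5079 of 5117 values kept their direction and their side of the threshold, 20 values of 9 genes lost the call, 15 values of 5 genes gained one and 3 reversed. The 3 reversals were under total count scaling, chosen after seeing the data, with log2 differences from the mean of the other tissues of 0.41 for Csf1r, 0.63 for Stx4a and 0.047 for Vamp3. That scaling also left 4270 genes lower and 169 distinctively lower. The filter of the study, which drops every gene with a library at 0, removes by construction genes absent from another tissue, and left 5939 genes higher, 366 distinctive and 157 distinctively lower. Distinctively lower genes were 732 at a 4-fold and 118 at a 16-fold limit. Leaving out each library in turn gave 9020 to 9645 genes higher, 7345 to 7528 lower, 1930 to 2045 distinctive and 285 to 329 distinctively lower. The pairing of skin and blood by animal, entered as a replicate block, gave 9356 higher, 7484 lower, 2045 distinctive and 304 distinctively lower, and its same-animal correlations were near 0. DESeq2 gave 2007 and limma voom 1907 distinctive genes. Fold sizes of genes with few counts outside brain are limited by depth.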
